A study of Mus musculus with 4 samples.

Results

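The genes described here are the immunoglobulin constant genes and the J chain gene, 9 of the 32285 genes in the count matrices of 4 spleen libraries. They were chosen by name, as the rows whose symbol is Ighm, Ighd, Ighg1, Ighg2b, Ighg2c, Ighg3, Igha, Igkc or Jchain, and each symbol had 1 row. Ighm, Ighd, the 4 Ighg genes and Igha encode the constant parts of the heavy chains of IgM, IgD, IgG1, IgG2b, IgG2c, IgG3 and IgA. Igkc encodes the constant part of the kappa light chain, and Jchain encodes the small protein that joins IgM or IgA units into polymers. No row of the matrices was named Ighg2a, the allelic form of Ighg2c known from BALB/c mice, so reads of that form could only be counted elsewhere or lost.

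The study asked how loss of the immune checkpoint receptor TIM-3, encoded by Havcr2, in CD8+ donor T cells (Tc) alters the graft-versus-leukemia effect after allogeneic hematopoietic cell transplantation. BALB/c mice received lethal total body irradiation, 10000 WEHI-3B cells, a BALB/c myelomonocytic AML line, and allogeneic bone marrow (BM), followed on day 2 by 200000 Tc from the spleen of donors that carried the H-2Kb haplotype. In 2 mice the BM and Tc came from Havcr2fl/fl;E8icre/+ donors, in which Cre is driven by the E8i enhancer of Cd8a and is meant to act in CD8+ Tc, and in 2 mice they came from Havcr2fl/fl donors, which carry the floxed alleles without Cre. On day 23 the spleens were enriched for Tc with a pan-T cell isolation kit, stained with an oligo-tagged Ab against H-2Kb, and 1 library per mouse was made with 10x Genomics 3′ chemistry. A figure legend of the study speaks instead of donor Tc sorted by FACS, and the account here follows the sample labels. Cre in this model is not meant to act in B lineage cells, and any B or plasma cell was seen only as far as the enrichment for Tc had left it.

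In a B cell, a rearranged variable segment is first joined to Ighm, and class switch recombination can later place it next to an Ighg gene or Igha, so that a cell makes 1 class at a time. Plasma cells, the secreting end stage, devote much of their mRNA to a single heavy and a single light chain. T cells and erythroid cells do not assemble these genes, but droplet libraries also hold RNA set free by broken cells, which gives UMIs in droplets of any cell type.

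The 7 heavy-chain genes lie in a row on the minus strand of mouse chromosome 12 (GRCm38), from Ighm at chr12:113418558-113422730 and Ighd at chr12:113406604-113416324 to Igha at chr12:113254830-113260236. Between them lie Ighg3 at chr12:113356224-113361232, Ighg1 at chr12:113325240-113330523, Ighg2b at chr12:113302965-113307933 and Ighg2c at chr12:113285325-113288932. Igkc is on chromosome 6 (chr6:70726435-70726966, plus strand) and Jchain on chromosome 5 (chr5:88519809-88527891, minus strand). The ends of the secreted heavy chains are shown because they are the stretch by which IgM and IgA bind the J chain. Each line gives the last 60 coding bases and the stop codon from the reference transcripts, 5′ to 3′ in the sense of the gene, with the last 2 codons in capitals.
Ighm (chr12:113420867-113420929, minus strand): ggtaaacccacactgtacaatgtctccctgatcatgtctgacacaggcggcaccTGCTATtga
Igha (chr12:113258768-113258830, minus strand): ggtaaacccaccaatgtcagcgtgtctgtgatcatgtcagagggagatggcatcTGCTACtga
Ighg1 (chr12:113328976-113329038, minus strand): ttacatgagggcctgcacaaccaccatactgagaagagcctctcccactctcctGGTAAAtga
Ighg2b (chr12:113306389-113306451, minus strand): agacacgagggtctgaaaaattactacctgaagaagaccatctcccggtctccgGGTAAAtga
Ighg2c (chr12:113287389-113287451, minus strand): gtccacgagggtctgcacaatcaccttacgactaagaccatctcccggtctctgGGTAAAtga
Ighg3 (chr12:113359665-113359727, minus strand): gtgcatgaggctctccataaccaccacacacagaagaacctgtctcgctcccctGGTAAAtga
Ighm and Igha both ended in a cysteine codon (TGC) followed by a tyrosine codon, whereas each Ighg gene ended in glycine and lysine codons and had 0 cysteine codons among its last 20. The last 60 coding bases of Ighm and Igha were 73.8% identical, against 43.2% to 51.5% for Ighm and the Ighg genes. Over the whole secreted transcript, Ighg2b and Ighg2c were 86.4% identical and the other Ighg pairs 72.9% to 75.9%, so low counts of an Ighg gene beside a high count of another are uncertain.

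The libraries held 1511 to 6737 barcodes and 17693991 to 55045903 UMIs each. After filters on genes, UMIs and mitochondrial RNA, 11632 cells remained, and 11507 after removal of 125 called doublets, of which 109 were called in Havcr2fl/fl replicate 2. Of these, 6767 were T cells and 3412 erythroid cells, and the rest were mostly myeloid and progenitor cells, so the labelled cell type, T cells, made up part of each library. All classes were named from marker genes that hold no immunoglobulin gene, in clusters made without immunoglobulin genes, and they are cells with the markers of a type rather than sorted cells. Havcr2 stood at 63.5 and 8.08 CPM (UMIs of a gene scaled to a common total of UMIs) in the T cells with a UMI of Cd8a and none of Cd4 of the libraries labelled Havcr2fl/fl;E8icre/+ (replicates 1 and 2), and at 56.2 and 118 CPM in those labelled Havcr2fl/fl. Replicate 1 of the deleted genotype was thus within the range of the controls and replicate 2 below both, so the libraries of that label differed. Which exons are deleted was not given in the sources used here, and what 3′ counts report of the deletion was not tested. The genotypes below are those of the labels. Across libraries, 28 barcode sequences occurred more than once, 17 of them among the kept cells.

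Immunoglobulin RNA was concentrated in a small class of plasma cells. Of 1154074 UMIs of the 9 genes in kept cells, 1084930 (94.0%) lay in 118 plasma cells. All 14 plasma cell markers were raised in their cluster, with a UMI of Mzb1, a chaperone of immunoglobulin assembly, in 118 of 118 cells, of the plasma cell surface proteoglycan Sdc1 in 80 and of the survival receptor Tnfrsf17 in 66. Pax5, the factor that keeps B cell identity and is lost in plasma cells, had a UMI in 0 of the 118. This allows a share of cells with a detected UMI of up to 2.54%, and low expression can go undetected. The T cell gene Cd3e had a UMI in 10 of them (8.47%), against 3.87% of erythroid cells, which have a similar median depth (16289 and 16517 UMIs). Most plasma cells held 0 or 1 UMI of Cd3e, Cd3d and Cd3g together, but a few held 13 to 77. Whether those droplets also held a T cell was not tested, and they stayed in all plasma cell counts.

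The 118 plasma cells were spread unevenly over the mice, with 23 and 20 in Havcr2fl/fl;E8icre/+ replicates 1 and 2, 2 in Havcr2fl/fl replicate 1 and 73 in Havcr2fl/fl replicate 2. They made up 0.671% and 0.786% of the cells in the former genotype and 0.166% and 1.69% in the latter. On average this was 0.728% ± 0.0812 (SD, n = 2) in Havcr2fl/fl;E8icre/+ against 0.926% ± 1.08 (SD, n = 2) in Havcr2fl/fl, and the log2 ratio was −0.35 (exact permutation test over the 4 libraries, two-sided, p = 1), and 2 libraries against 2 cannot give a p under 0.33. Havcr2fl/fl had both the lowest and the highest share, and without its replicate 2 the log2 ratio was 2.13. The sign also turned when plasma cells were taken as a share of the cells outside the T cell class. Those shares were 2.13% and 2.67% against 0.495% and 2.91%, and the log2 ratio was 0.49.

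In a typical plasma cell, more than every other UMI came from these 9 genes. Their share of a cell's UMIs had a median of 58.8%, from 7.99% to 78.3%, and a median of 60.4% with the lambda light-chain genes added. The medians by library were 56.9% and 57.4% in Havcr2fl/fl;E8icre/+ and 55.1% and 60.1% in Havcr2fl/fl (replicates 1 and 2 of each), a narrow range. Cells in cycle had lower shares. In 16 plasma cells with at least 5 UMIs of the proliferation gene Mki67, 15 of them from Havcr2fl/fl replicate 2, the share had a median of 27.8% (7.99% to 50.3%), against 60.7% in the other plasma cells. The cycling cells held a median of 9591.5 UMIs of the 9 genes and the others 9306.5, in totals of 34078 and 15571 UMIs per cell. A deeper cell reaches 5 Mki67 UMIs more easily, so this choice itself favours larger totals and lower shares. The other plasma cells came from all 4 libraries, and no comparison within a library was made. The share of lambda-expressing cells was also low (median 18.6%, 9 cells), since their light chain is not among the 9 genes.

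Plasma cells with a heavy chain were dominated by 1 class. A leading heavy-chain gene was assigned to 115 cells in which heavy-chain UMIs reached 1% of the total. It held over 99% of the heavy-chain UMIs in 101 of them and over 95% in 112, with a median of 99.96% and a lowest value of 90.1%. Ighm led in 41 cells (34.7%) with 308 to 8345 Ighm UMIs (median 2502), and Ighg2c, the class favoured in interferon-rich responses of C57BL/6 mice, led in 46 (39.0%) with 703 to 4903 (median 1758.5). Ighg1 led in 12 cells, Ighg2b in 7, Ighg3 in 7 and Igha in 2. In the 3 cells without a leading gene, heavy-chain UMIs reached at most 0.171% of the total although kappa was abundant, for instance 40 Ighm UMIs beside 13027 Igkc UMIs in a cell of Havcr2fl/fl;E8icre/+ replicate 1.

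The class mix differed between mice. Ighm led in 15 of 23 plasma cells of Havcr2fl/fl;E8icre/+ replicate 1 (65.2%, 95% Wilson interval 44.9 to 81.2) and in 13 of 20 of replicate 2 (65.0%, 43.3 to 81.9). In Havcr2fl/fl it led in 1 of 2 cells of replicate 1 and in 12 of 73 of replicate 2 (16.4%, 9.66 to 26.6). Intervals cover counting error only, not the spread between mice. Ighg2c was the commonest class in Havcr2fl/fl replicate 2, where it led in 40 of 73 cells (54.8%, 43.4 to 65.7), but it led in only 2 and 4 cells of Havcr2fl/fl;E8icre/+ replicates 1 and 2. Those 2 cells of replicate 1 held 13 and 25 UMIs of Cd3e, Cd3d and Cd3g together. Both Igha cells and 8 of the 12 Ighg1 cells were in Havcr2fl/fl replicate 2 as well. The Ighm share averaged 65.1% ± 0.154 (SD, n = 2) in Havcr2fl/fl;E8icre/+ and 33.2% ± 23.7 (SD, n = 2) in Havcr2fl/fl, a difference of 31.9 percentage points (exact permutation test, two-sided, p = 0.33, the smallest that the design allows). That comparison was chosen after the shares were seen, and it rests in Havcr2fl/fl on 1 well-filled library. Without Havcr2fl/fl replicate 2 the difference was 15.1 points, from a library of 2 plasma cells.

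**Figure D1:**
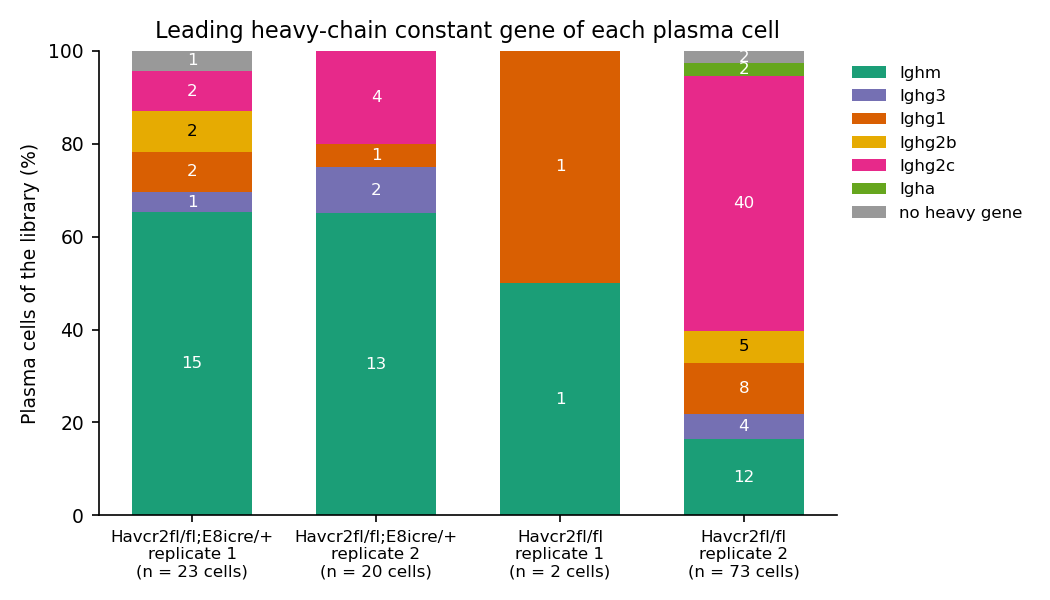
Share of plasma cells (y axis, percent of the plasma cells of a library) led by each heavy-chain constant gene, in the 4 libraries (x axis), with cell numbers in the bars. Ighm fills 65.2% and 65.0% of the Havcr2fl/fl;E8icre/+ bars and 16.4% of the bar of Havcr2fl/fl replicate 2, where Ighg2c fills 54.8%, and the bar of Havcr2fl/fl replicate 1 holds 2 cells.

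The donor tag set some Ighm plasma cells apart. A cell was called low when its H-2Kb tag was over 3 median absolute deviations below its library's median (log2 scale), a limit of 307 to 637 tag UMIs, under which 1.63% to 4.20% of all cells fell. Among plasma cells, 9 of 23 were low in Havcr2fl/fl;E8icre/+ replicate 1, 1 of 20 in replicate 2, 0 of 2 in Havcr2fl/fl replicate 1 and 2 of 73 in replicate 2. Of these 12 cells, 11 were led by Ighm and 1 by Ighg3. The 9 low cells of Havcr2fl/fl;E8icre/+ replicate 1 held 168 to 380 tag UMIs and the other plasma cells of that library at least 1140, with no overlap by construction of the limit but with a wide gap. These 9 cells were not all of a single clone by their variable genes. Their leading kappa variable genes were Igkv6-15, Igkv2-137, Igkv10-96, Igkv14-100, Igkv4-57-1, Igkv1-135 and Igkv1-110, the last in more than 1 cell. The 12 low cells, which came from more than 1 mouse, carried 10 different kappa variable genes. Without low-tag cells, Ighm led in 42.9% and 68.4% of plasma cells of Havcr2fl/fl;E8icre/+ replicates 1 and 2 and in 50% and 14.1% of those of Havcr2fl/fl replicates 1 and 2. The difference between genotypes was then 23.6 points. Whether the low-tag cells came from the recipient was not tested.

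Switched plasma cells of Havcr2fl/fl replicate 2 often shared their variable genes. A leading heavy-chain and light-chain variable gene could be assigned to 94 of the 118 cells. In Havcr2fl/fl replicate 2, 38 of 49 such IgG cells had the same pair as another cell of the library and 0 of 5 Ighm cells did, while in Havcr2fl/fl;E8icre/+ replicates 1 and 2 the counts were 2 of 6 and 1 of 7 IgG cells and 0 of 10 and 6 of 13 Ighm cells. The largest groups in Havcr2fl/fl replicate 2 were 7 Ighg2c cells with Ighv1-76 and Igkv3-1 and 6 Ighg2c cells with Ighv1-76 and Igkv6-23. A group of 5 cells with Ighv1-12 and Igkv8-30 held 3 led by Ighg2c and 2 led by Ighg2b. Those 2 cells had 4139 and 3911 Ighg2b UMIs beside 416 and 429 of Ighg2c, the lowest lead shares of all plasma cells (90.8% and 90.1%), and how far similar sequences of Ighg2b and Ighg2c share reads was not tested. Both Igha cells carried Ighv8-8 with Igkv10-96. The largest group outside that library was 4 Ighm cells of Havcr2fl/fl;E8icre/+ replicate 2 with Ighv1-54 and Igkv1-117. Shared pairs become likelier with more cells in a library, and the joining sequences that define a clone were not measured by 3′ counts.

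Igkc was the light chain of most plasma cells. Kappa held at least 80% of the light-chain UMIs in 107 cells, with 386 to 25402 Igkc UMIs each. Lambda did in 9 cells, which held 0 to 77 Igkc UMIs. The lambda cells numbered 1 and 5 in Havcr2fl/fl;E8icre/+ replicates 1 and 2 and 0 and 3 in Havcr2fl/fl, and 6 were led by Ighm, 1 by Ighg1 and 2 by Ighg3. With lambda genes counted, immunoglobulin RNA took a median of 57.3% of their UMIs, close to the 60.2% of kappa cells. In 2 cells both light chains were high, with 8720 Igkc and 7080 Iglc1 UMIs in an Ighm cell of Havcr2fl/fl;E8icre/+ replicate 1 and 6414 Igkc and 13255 Iglc1 UMIs in an Ighg2c cell of replicate 2. Whether these were doublets of plasma cells was not tested.

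Ighd, the class made with Ighm by naive B cells through splicing, was nearly absent. Plasma cells held 2 Ighd UMIs in 2 cells, and all kept cells together held 78 in 60 cells, with at most 6 in a cell. The IgE gene Ighe, which is not among the 9 genes, had 1 UMI in the plasma cells.

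Jchain was found in every plasma cell, and its level followed the class of the cell. It had 18 to 1520 UMIs per cell (median 216.5). In Ighm cells Jchain made up a median of 3.65% of a cell's UMIs (0.941% to 6.47%, 41 cells), in IgG cells 0.872% (0.0800% to 4.64%, 72 cells), and in the 2 Igha cells 2.85% and 4.25%. Over 2% of UMIs were Jchain in 36 of 41 Ighm cells and in 5 of 72 IgG cells. The classes thus overlapped in range but not in their medians. The Ighm cells and the 2 Igha cells, both of Havcr2fl/fl replicate 2, were the high ones. Whether the Jchain RNA level is tied to the heavy-chain ends printed above was not tested.

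The difference held within each library that had both classes. The median in Ighm cells was 3.99% and 3.86% in Havcr2fl/fl;E8icre/+ replicates 1 and 2 and 3.93% (1 cell) and 2.88% in Havcr2fl/fl replicates 1 and 2. In IgG cells it was 0.637%, 0.520%, 0.622% (1 cell) and 0.901% in the same order. The ratio of the medians was 6.26, 7.41 and 3.20 in the 3 libraries with more than 1 cell of each class. Cells of a mouse are not replicates, and these values are given without a test. In counts, the median was 604 Jchain UMIs in Ighm cells and 134 in IgG cells, whose median totals over all libraries were 17712 and 15846 UMIs. Within libraries depth differed in either direction. The median totals were 17712 against 24772 and 28737 against 22490 UMIs in Havcr2fl/fl;E8icre/+ replicates 1 and 2. In Havcr2fl/fl replicates 1 and 2 they were 8737 against 46641 (1 cell each) and 14392 against 15387 UMIs.

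**Figure D2:**
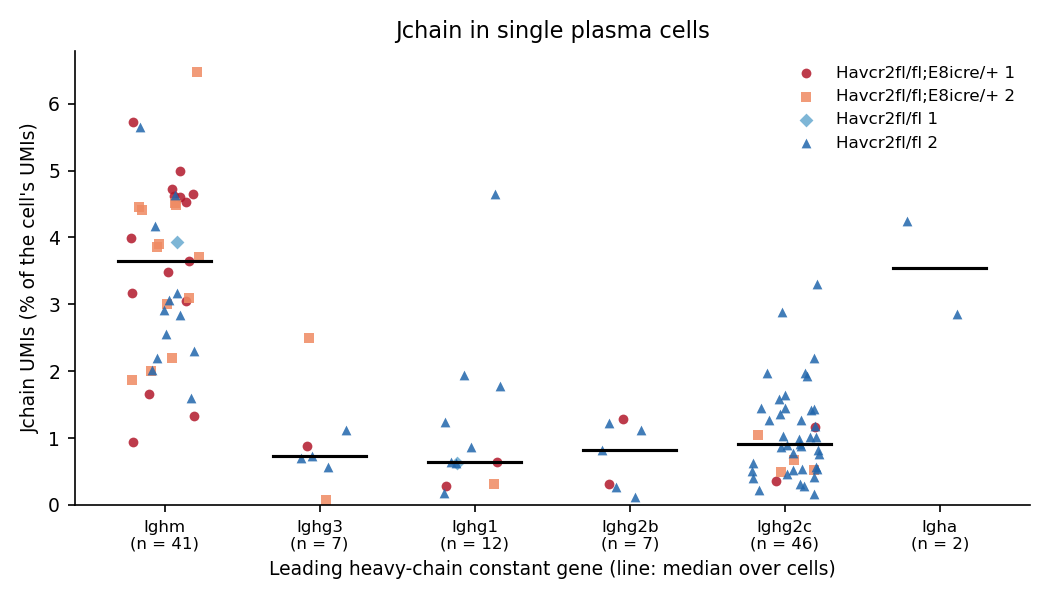
Jchain as a percent of the UMIs of each plasma cell (y axis) against the heavy-chain gene that leads in the cell (x axis), with the library as colour and shape and black lines at the medians. Ighm cells (median 3.65%) and the 2 Igha cells lie above most cells of the 4 Ighg classes (median 0.872% over 72 cells), in every library.

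Other genes of antibody production were high in the plasma cells. From a list of 40 genes of the pathway, the plasma cell sums held 1632 CPM of Mzb1, 930 CPM of Xbp1, the factor that expands the secretory apparatus, and 1855 CPM of the endoplasmic reticulum chaperone Hsp90b1, against 1.49, 49.5 and 498 CPM in T cells. Cd79a, a signalling part of the B cell receptor, was at 285 CPM. Prdm1, the repressor that drives plasma cell fate and is also used by activated T cells, was at 72.0 CPM in plasma cells and 60.8 CPM in T cells. Over 29 sums of a class in a library, the genes whose log2(CPM + 1) followed Jchain best were Cd79a (Pearson r = 0.95), Mzb1 (0.95) and Tnfrsf17 (0.94), those for Igkc were Mzb1 (0.96), Cd79a (0.94) and Prlr (0.92), and those for Ighm were Cd79a (0.89), Tnfrsf17 (0.89) and Prlr (0.88). The points share libraries and differ in depth, and plasma cells hold the high end of each, so these values are descriptive.

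B cells were almost missing after the enrichment for Tc. Only 4 cells had more B cell than plasma cell markers, 2 in each Havcr2fl/fl;E8icre/+ library and 0 in both Havcr2fl/fl libraries, where 0 of 1213 and 0 of 4437 cells allow shares of up to 0.247% and 0.0676%. All 4 had UMIs of Pax5, Cd79a and the B cell surface protein Ms4a1. Their immunoglobulin RNA was low beside that of plasma cells, with 51, 739, 190 and 110 UMIs of the 9 genes, which is 0.852%, 2.66%, 1.95% and 2.47% of their UMIs. The 4 cells held 9, 279, 46 and 7 Ighm UMIs and 38, 452, 141 and 96 Igkc UMIs. Ighd was seen in the first and the last, with 4 and 6 UMIs. Jchain had 0, 0, 0 and 1 UMI. The cell with 739 UMIs held 44 Mki67 UMIs and was the deepest at 27801 UMIs. With under 10 cells per library in B cells, and 2 plasma cells in a library, no test across genes was made between genotypes for either class.

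Immunoglobulin RNA was also found in most T cells and erythroid cells, at low counts. In the T cells of Havcr2fl/fl;E8icre/+ replicates 1 and 2 there were 0.955 and 2.22 Igkc UMIs per cell, and 1.88 and 2.38 in those of Havcr2fl/fl replicates 1 and 2. In erythroid cells the values were 0.870, 1.24, 1.44 and 2.68 in the same order. At least 1 Igkc UMI was found in 50.7%, 55.1%, 54.4% and 75.1% of T cells and in 50.9%, 57.5%, 42.0% and 79.7% of erythroid cells. The median depth of T cells was 4359, 5683.5, 6373 and 2888 UMIs, and that of erythroid cells 21656.5, 8574.5, 10334.5 and 17666.5 UMIs. Over cells with up to 10 UMIs of the 9 genes, Igkc was at 0.916, 1.24, 1.20 and 1.84 UMIs per T cell and at 0.832, 1.19, 0.825 and 2.07 per erythroid cell. Over the latter cells, the types thus lay closer together per cell than their median depths did, though only slightly in Havcr2fl/fl replicate 1. Over all cells this did not hold in Havcr2fl/fl;E8icre/+ replicate 2 (2.22 against 1.24 UMIs, at depths of 5683.5 and 8574.5). Havcr2fl/fl replicate 2, the library with most plasma cells, had the highest values in both T and erythroid cells. Havcr2fl/fl replicate 1, with the fewest plasma cells, was not the lowest over all cells. It exceeded Havcr2fl/fl;E8icre/+ replicate 1 in T cells (1.88 against 0.955) and both libraries of that genotype in erythroid cells (1.44 against 0.870 and 1.24). Thinned to 2000 UMIs a cell, the shares fell to 28.3%, 28.5%, 29.9% and 60.1% of T cells and 10.9%, 21.4%, 16.2% and 28.3% of erythroid cells, with 85, 30, 30 and 284 T cells and 22, 9, 16 and 38 erythroid cells too shallow to be thinned.

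Defining markers of plasma cells were nearly absent from these cells. Sdc1 had a UMI in 6 of 6767 T cells and 37 of 3412 erythroid cells, Tnfrsf17 in 2 and 2, and Mzb1 in 45 and 48. The 14 plasma cell markers summed to 312 to 351 CPM in T cells over the 4 libraries and 90.8 to 114 CPM in erythroid cells, against 4473 to 8000 CPM in plasma cells. Most of that sum in T cells came from genes that they also use, such as Prdm1 (60.8 CPM) and Slamf7 (69.7 CPM). The summed B cell markers stood at 41.6 to 75.1 CPM in T cells and 54.4 to 96.8 CPM in erythroid cells, with Pax5 at 0 in both. Leaving out every T cell with a UMI of a B or plasma cell marker gave 3.19, 3.45, 4.0 and 9.19 UMIs of the 9 genes per 10000 UMIs, against 3.17, 6.35, 4.02 and 9.73 with them. Havcr2fl/fl;E8icre/+ replicate 2 alone changed by over 1.5 times.

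That change came mostly from a single cell. In Havcr2fl/fl;E8icre/+ replicate 2, a cell clustered with the T cells held 3546 UMIs of the 9 genes, 45.7% of all those in the T cells of its library, with 2032 of Ighg2c, 1500 of Igkc and 4875 of the lambda gene Iglc1. Outside the plasma and B cells, 16 cells held at least 40 UMIs of the 9 genes. The highest was a cell of the basophil and mast lineage from the same library with 15959, 99.7% of those in its class there, and the next a granulocyte-monocyte progenitor of Havcr2fl/fl replicate 2 with 11815. These totals are in the range of plasma cells, and whether they are 2 cells in a droplet was not tested. Levels below are therefore also given over cells with up to 10 UMIs of the 9 genes.

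The switched heavy chains in T and erythroid cells differed from mouse to mouse in the way those of the plasma cells did, with exceptions. Over Ighg1, Ighg2b, Ighg2c, Ighg3 and Igha, and over cells with up to 10 UMIs of the 9 genes, Ighg1 took 83.6% of the UMIs in T cells and 88.7% in erythroid cells of Havcr2fl/fl replicate 1, where it held 94.6% in the 2 plasma cells. Ighg2c took 54.5% and 58.0% in Havcr2fl/fl replicate 2 (67.4% in its plasma cells) and 51.6% and 45.9% in Havcr2fl/fl;E8icre/+ replicate 2 (50% in its plasma cells). In Havcr2fl/fl;E8icre/+ replicate 1, Ighg1 led with 46.7% and 46.6% (41.0% in plasma cells). In each of the 4 libraries the leading switched gene was the same in plasma, T and erythroid cells. On the plasma side this rests on few cells outside Havcr2fl/fl replicate 2. Ighg1 led in 2 plasma cells of Havcr2fl/fl;E8icre/+ replicate 1 and in 1 of Havcr2fl/fl replicate 1, whose other plasma cell held 0 switched heavy-chain UMIs. Ighg2c led in 4 plasma cells of Havcr2fl/fl;E8icre/+ replicate 2 and in 40 of Havcr2fl/fl replicate 2.

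Several classes in T and erythroid cells had no match among the kept plasma cells. Igha took 30.1% of switched heavy-chain UMIs in T cells and 28.7% in erythroid cells of Havcr2fl/fl;E8icre/+ replicate 2, where it made up 0.0130% of those of plasma cells and led in none of them. In Havcr2fl/fl replicate 1, with 0 Igha and 0 Ighg2b UMIs in its 2 plasma cells, Igha took 3.78% and Ighg2b 9.66% in T cells, and 0 and 7.04% in erythroid cells. In Havcr2fl/fl replicate 2 Igha took 10.1% and 7.98%, against 2.82% in plasma cells. Igha was at 2 UMIs in all T cells of Havcr2fl/fl;E8icre/+ replicate 1, which held no Igha-led plasma cell either. Ighg2b went the other way in Havcr2fl/fl;E8icre/+ replicate 1, with 32.9% in plasma cells from 2 cells and 7.04% and 10.1% in T and erythroid cells. It was found in 0 of 1796 T cells of replicate 2, which allows a share of up to 0.167%, and no plasma cell there was led by it. Ighg3 also departed, with 36.0% in plasma cells of Havcr2fl/fl;E8icre/+ replicate 2 against 11.9% and 15.6% in T and erythroid cells. In replicate 1 of that genotype it took 9.12% in plasma cells against 24.4% and 20.1%. Plasma cells lost in the enrichment could not be seen, and their part in these values was not tested.

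**Figure D3:**
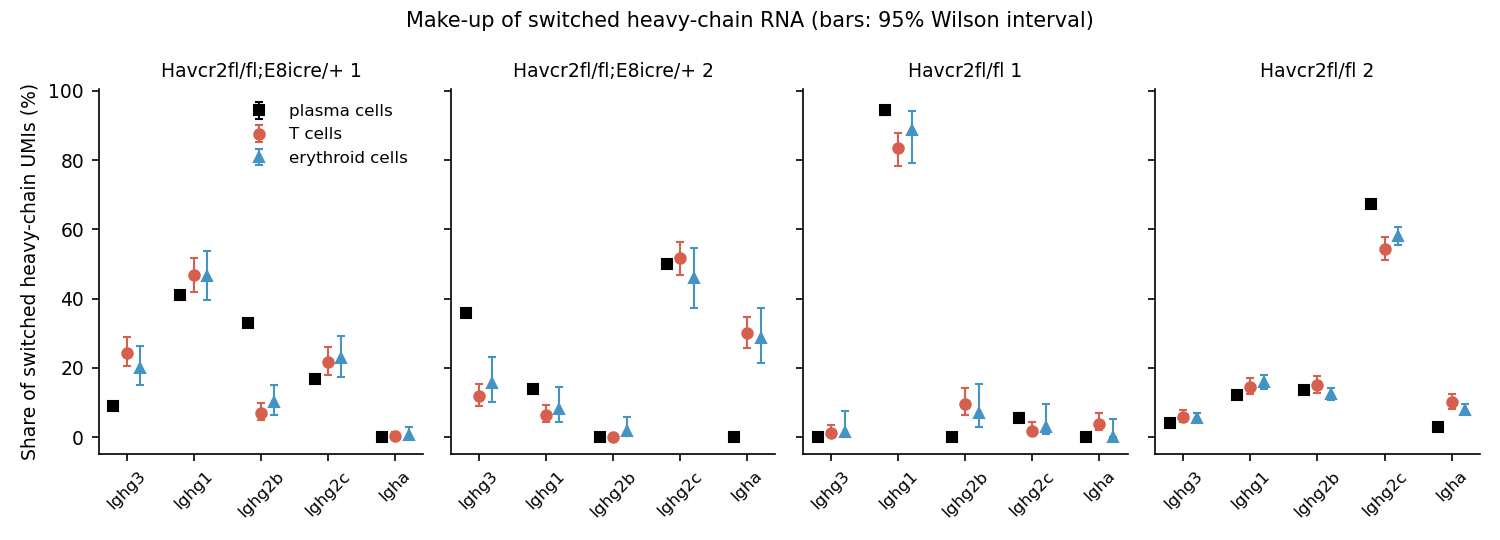
Share of each gene among the switched heavy-chain UMIs (y axis, percent) in plasma cells, and in T cells and erythroid cells with up to 10 UMIs of the 9 genes, in 1 panel per library, with 95% Wilson intervals of counting error. The T cell and erythroid cell points of a library lie side by side, for instance 51.6% and 45.9% for Ighg2c in Havcr2fl/fl;E8icre/+ replicate 2, where Igha is at 30.1% and 28.7% beside 0.0130% in plasma cells.

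Jchain was also found in T and erythroid cells, at a low level. It had a UMI in 6.0%, 6.40%, 5.63% and 9.33% of T cells (Havcr2fl/fl;E8icre/+ replicates 1 and 2, then Havcr2fl/fl replicates 1 and 2) and in 7.34%, 6.87%, 4.42% and 10.6% of erythroid cells. Per 1000 Igkc UMIs, over cells with up to 10 UMIs of the 9 genes, there were 70.2, 53.4, 22.7 and 45.3 Jchain UMIs in T cells and 93.9, 66.9, 40.2 and 47.7 in erythroid cells, against 70.4, 94.4, 22.5 and 36.2 in plasma cells. The lowest ratio was that of Havcr2fl/fl replicate 1 in all 3 classes, from 2 plasma cells there and from 20 Jchain UMIs in T cells and 7 in erythroid cells. The order of the other libraries was not kept. Havcr2fl/fl;E8icre/+ replicate 2 was the highest in plasma cells but below replicate 1 in T cells and erythroid cells.

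Relative to Igkc, Ighm differed more between the T and erythroid cells of each library than Jchain did. Both ratios varied between libraries. Per 1000 Igkc UMIs there were 535, 430, 299 and 155 Ighm UMIs in T cells, 297, 112, 132 and 54.7 in erythroid cells, and 381, 337, 56.2 and 44.3 in plasma cells. T cells were above erythroid cells in all 4 libraries. An Ighm UMI was found in 28.0% of T cells and 13.1% of erythroid cells, and in 15.4% and 2.34% after thinning to 2000 UMIs.

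Ighm per cell was highest in a few clusters. Over cells with up to 10 UMIs of the 8 other genes, and over the cells of all 4 libraries, clusters other than the 4 named here held from 0.0852 Ighm UMIs per cell in an erythroid cluster to 0.789 in dendritic cells. A T cell cluster led by Tnfrsf4 and Foxp3, the factor of regulatory T cells, had 2.74, 2.62, 4.88 and 1.65 Ighm UMIs per cell (8 cells in Havcr2fl/fl replicate 1), with an Ighm UMI in 70.1% of its cells. A cluster led by Lef1 and Tcf7, factors of naive T cells, had 1.30, 1.07, 1.5 and 0.375, from 2 and 8 cells in the Havcr2fl/fl libraries. A cluster led by Slamf6 and Tcf7 had 0.956, 0.927, 0.866 and 0.567. The highest were the granulocyte-monocyte progenitors, with 6.78, 6.83, 6.89 and 3.18 Ighm UMIs per cell and an Ighm UMI in 89.4% of cells. In all 4 libraries the progenitors were the highest of these 4 clusters and the Foxp3 cluster came next, whereas the order of the others varied.

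Depth and light chain did not rise alike in these clusters. The progenitors were deep (median 33039 UMIs), and 29.3% of them had an Ighm UMI after thinning, whereas the Foxp3 cluster was shallow (median 3310 UMIs) and kept 62.2%. Igkc in the progenitors was at 1.05, 1.39, 1.00 and 2.26 UMIs per cell, near the 0.939, 1.29, 1.27 and 1.90 of all T cells. In the Foxp3 cluster it was at 1.15, 2.08, 2.50 and 2.23. Their donor tag was not low, with medians of 3100 to 7935 tag UMIs in the progenitors and 1813.5 to 4074.5 in the Foxp3 cluster, and 4 of 355 and 2 of 278 cells under the limit. T cells held 60 Ighd UMIs in 50 cells and erythroid cells 1 in 3412 cells. Whether the Ighm UMIs come from a rearranged gene or from transcripts of the constant region alone was not tested.

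**Figure D4:**
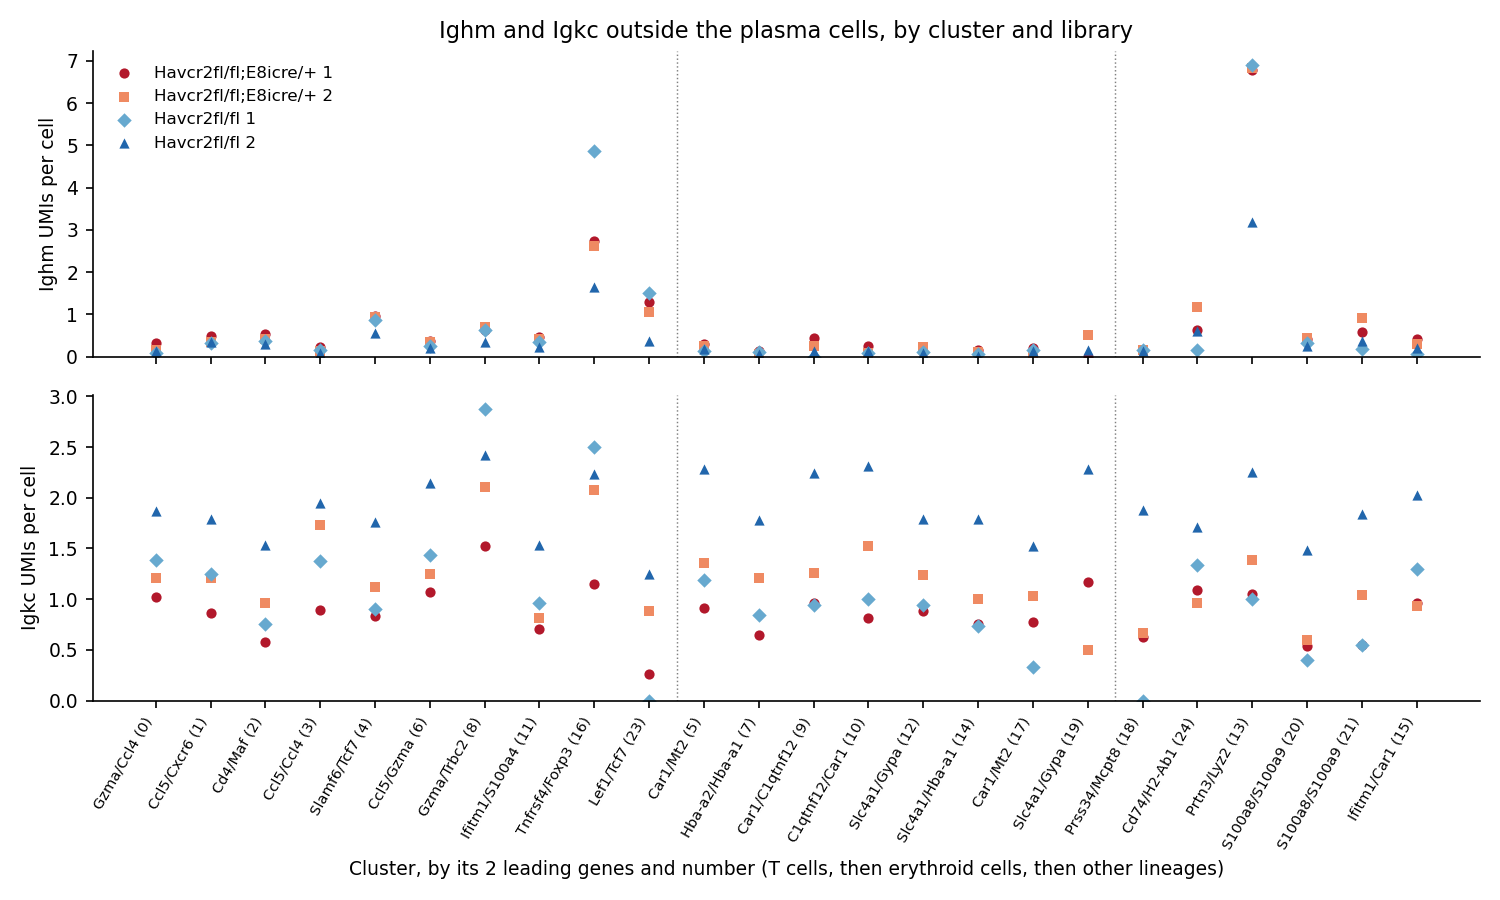
Ighm (upper panel) and Igkc (lower panel) UMIs per cell (y axes) in clusters of T cells, erythroid cells and other lineages (x axis, named by their 2 leading genes), 1 point per library, over cells with up to 10 UMIs of the other genes of the 9. Ighm stands out in the granulocyte-monocyte progenitors (3.18 to 6.89 per cell) and the Foxp3 cluster (1.65 to 4.88), while Igkc is highest in Havcr2fl/fl replicate 2 in most clusters.

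Between genotypes, no gene of the 9 passed the test in T cells or in erythroid cells. UMI counts were summed per library and class and compared with edgeR's quasi-likelihood test (2 libraries against 2, CPM scaled by TMM factors, Benjamini-Hochberg adjustment over all genes tested, threshold 0.05), so that the p-values measure the spread between mice. In T cells, all 9 genes were tested and 0 were called, with an adjusted p of 0.998 for each, beside 2 of 11651 genes called in all (0.0172%). At an unadjusted p under 0.05 there were 2 of 9 beside 391 genes in all (3.36%), and DESeq2 called 0 of 9 and 18 genes in all. In erythroid cells, 8 genes were tested, without Ighd, and 0 were called (edgeR adjusted p from 0.994 to 0.997), beside 3 of 10780 in all (0.0278%). There, 2 of the 8 had an unadjusted p under 0.05 beside 409 genes in all (3.79%), and DESeq2 called 0 of the 8 and 14 genes in all.

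In T cells, Ighg2b and Ighg1 had the lowest fold changes and the only edgeR unadjusted p-values under 0.05 of the 9 genes. The DESeq2 Wald test there gave an unadjusted p of 0.169 for Ighg2b and 0.0526 for Ighg1. Ighg2b in T cells was at 2.10 and 0 CPM in replicates 1 and 2 of Havcr2fl/fl;E8icre/+ and at 5.5 and 19.4 CPM in those of Havcr2fl/fl, and its log2 fold change was −3.54 (SE 0.96, edgeR unadjusted p = 0.00594). Ighg1 in T cells was at 14.1 and 2.31 CPM against 75.0 and 21.9 CPM, and the log2 fold change was −2.56 (SE 0.74, edgeR unadjusted p = 0.00802). Without cells of over 10 UMIs of the 9 genes, the values were −3.48 for Ighg2b and −1.81 for Ighg1. The genotypes did not overlap for either gene, as for 13.9% of all genes tested that were lower in both Havcr2fl/fl;E8icre/+ libraries. In the erythroid cells of the same mice, Ighg2b was at 1.11 and 0.202 CPM against 1.55 and 5.0 CPM, and the log2 fold change was −2.30 (SE 0.78, edgeR unadjusted p = 0.0246). Igkc there was at 33.1 and 58.2 CPM against 72.0 and 154 CPM, and the log2 fold change was −1.30 (SE 0.40, edgeR unadjusted p = 0.0164). The DESeq2 Wald test in erythroid cells gave an unadjusted p of 0.0202 for Ighg2b and 0.00193 for Igkc. None of these passed the adjustment.

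The other genes varied as much within a genotype as between them. In T cells, Ighm was at 96.4 and 94.3 CPM in Havcr2fl/fl;E8icre/+ and at 58.3 and 95.9 CPM in Havcr2fl/fl (log2 fold change 0.28, SE 0.23). Igkc was at 169 and 329 CPM against 250 and 671 CPM (−0.91, SE 0.46), and Jchain at 11.3 and 11.2 CPM against 7.67 and 28.5 CPM (−0.71, SE 0.48). Ighg2c in T cells had a log2 fold change of 1.10 (SE 1.33), which turned to −1.61 without cells of over 10 UMIs of the 9 genes, among them the cell with 2032 Ighg2c UMIs in replicate 2. Igha was at 0.150 and 10.7 CPM against 4.17 and 46.7 CPM (−2.27, SE 1.21). A single T cell of Havcr2fl/fl replicate 2 held 215 of the 301 Igha UMIs there, and the log2 fold change was −0.56 without cells of over 10 UMIs of the 9 genes. Over the 9 genes, 2 were lower in both Havcr2fl/fl;E8icre/+ libraries than in both others in T cells and 3 in erythroid cells, and 0 were higher in either class. Over all genes tested, 13.9% and 15.8% were lower in both in this way and 16.4% higher in each class. Of the 40 other genes of antibody production, 22 were tested in T cells and 14 in erythroid cells, and 0 were called in either direction, with median log2 fold changes of −0.03 and 0.16 beside −0.01 and 0.00 over all genes tested.

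The 9 genes together showed the same. In T cells they made up 4.76 ± 2.25 UMIs per 10000 (SD, n = 2) in Havcr2fl/fl;E8icre/+ and 6.87 ± 4.04 (SD, n = 2) in Havcr2fl/fl, and the log2 ratio was −0.53 (exact permutation test, two-sided, p = 0.667), which was 0.25 without Havcr2fl/fl replicate 2. In erythroid cells the values per library were 0.680 and 0.788 against 1.01 and 2.29, averaging 0.734 ± 0.0759 and 1.65 ± 0.905 (SD, n = 2), and their log2 ratio was −1.17 (exact permutation test, two-sided, p = 0.33, the smallest possible), which was −0.46 without Havcr2fl/fl replicate 2. Over cells with up to 10 UMIs of the 9 genes, the levels were 3.04 and 3.17 against 2.67 and 7.53 in T cells and 0.625 and 0.766 against 0.590 and 1.74 in erythroid cells. The genotypes overlapped in both classes once those cells were set aside, and Havcr2fl/fl replicate 2, which held 73 of the 118 plasma cells, was the highest. Havcr2fl/fl replicate 1, with the fewest plasma cells, was then the lowest in both classes. Over all cells, however, it was above both Havcr2fl/fl;E8icre/+ libraries in erythroid cells and above replicate 1 of that genotype in T cells.

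**Figure D5:**
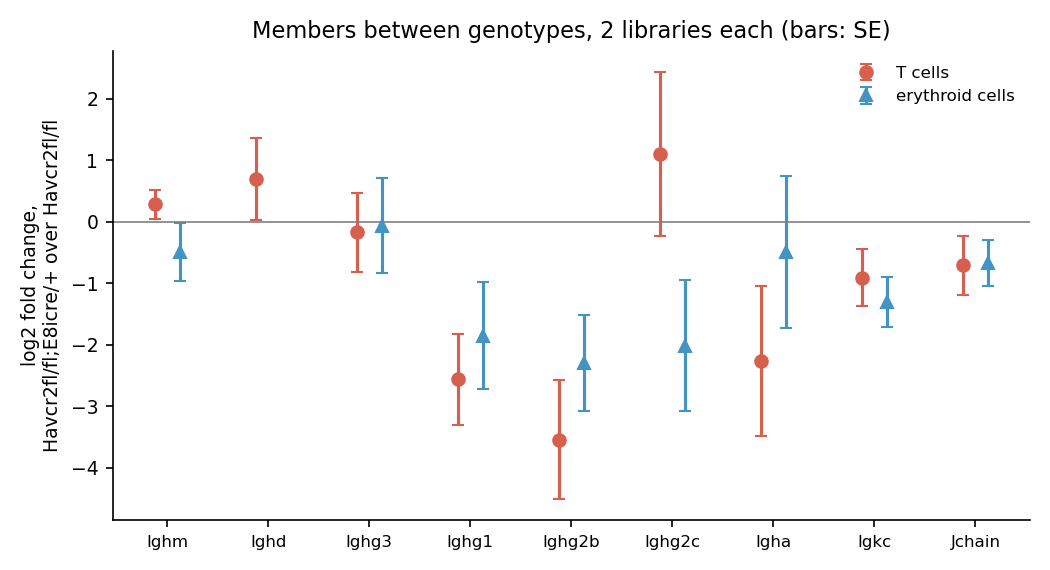
log2 fold changes of the 9 genes (x axis), Havcr2fl/fl;E8icre/+ over Havcr2fl/fl (y axis, bars ± SE), from sums over the T cells and the erythroid cells of 2 libraries per genotype. Ighg2b and Ighg1 are lowest in T cells (−3.54 and −2.56), and 0 genes passed the adjusted test in either class.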

How the data were processed

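Spleen cells of 4 mice were profiled with 10x Genomics 3′ chemistry. The authors deposited UMI counts per gene and barcode, made with Cell Ranger 6.1.2 against mm10 per the submitters' processing notes, with no normalization, and with counts of 1 Ab tag, which stayed out of library sizes. Gene positions and transcripts were those of GENCODE M21 (GRCm38), read with Biopython 1.88. Cells needed 500 genes, 1000 UMIs and at most 10% mitochondrial UMIs. Doublets were called per library with Scrublet in scanpy 1.11.5, which called 2, 5 and 9 cells in 3 libraries and therefore removed few doublets there. Cells were clustered with leidenalg 0.10.2 (2000 variable genes, 30 components, resolution 1) without immunoglobulin, TCR variable, mitochondrial and sex-linked genes and Havcr2, and clusters were named from at least 3 raised markers. The plasma cell cluster was divided into plasma and B cells by the share of markers detected. Summed counts were tested with edgeR 4.0.16 (TMM, filterByExpr) in R 4.3.3, which was tested on simulated data, and with DESeq2 1.42.0. All 9 genes were described, together with the 3 genes most like Jchain, Ighm and Igkc and a list of 40 genes of antibody production. The genes and lists were chosen with earlier results of these data known. Counts of shared groups, donor tag, J chain and variable genes were chosen after the data were seen. Alternatives covered normalization, test, filters, classes, thinning, blocks and each library left out.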

Additional observations from a re-analysis of the deposited data

Results flagged for a closer look

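Barcodes that the cell filter left out, and that enter no comparison, held immunoglobulin RNA far above the few UMIs of a typical T cell. At least 100 UMIs of the 9 genes were found in 4 such barcodes of Havcr2fl/fl;E8icre/+ replicate 1, in 3 of replicate 2 and in 12 of Havcr2fl/fl replicate 2, and in 0 of Havcr2fl/fl replicate 1. Of these 19 barcodes, 9 were led by Ighg2c, 3 by Ighm, 2 each by Ighg1, Ighg2b and Ighg3, and 1 by Igha. The Igha barcode, in Havcr2fl/fl;E8icre/+ replicate 2, held 308 Igha UMIs among 1785 UMIs, with 19.4% mitochondrial UMIs. The T and erythroid cells of that library held Igha without an Igha-led plasma cell among the kept cells, as did the T cells of Havcr2fl/fl replicate 1. The erythroid cells of Havcr2fl/fl replicate 1 held 6 Igha UMIs, and 0 over cells with up to 10 UMIs of the 9 genes. The part of left-out barcodes in the Igha values was not tested.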

How the results depend on the processing

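Of 58 alternatives, 7 moved a result by more than the spread between replicates or changed a count of calls by over 1.5 times. Without a filter on low counts, edgeR called 5 of the 9 genes in T cells (Ighg1, Ighg2b, Ighg2c, Igha and Igkc, among 108 of 18138 genes) and 4 in erythroid cells (among 73 of 16960). Leaving out 1 library at a time gave 0 to 4 calls in T cells, with 3 without Havcr2fl/fl;E8icre/+ replicate 1 (54 of 11514 genes in all) and 4 without replicate 2 (22 of 11424), where the lone library is assumed to vary like the other group, and 0 in erythroid cells. The log2 ratio of plasma cell shares ran from −1.21 to 2.13 over the libraries left out, the latter without Havcr2fl/fl replicate 2. With the cells outside the T cell class as the total, that ratio was 0.49. The log2 ratio of the 9 genes in T cells ran from −1.11 to 0.25, with its sign turned without Havcr2fl/fl replicate 2. The causes were not tested.

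Same-numbered libraries did not deviate together (correlations of −0.15 in T cells and −0.30 in erythroid cells). With 2 libraries per genotype this is 1 value per class, which cannot show whether the replicate numbers mark a pairing. With the replicate number as a block, edgeR called 1 gene in T cells, Ighg1 (adjusted p = 0.0220; 0.998 without the block, and from 7.04e-23 to 1.00 as the smallest adjusted p of the 9 over all alternatives), among 6 of 11651 genes in all, and 0 in erythroid cells. The crossed pairing, added after seeing the data, gave 4 and 0 calls, among 95 of 11651 and 6 of 10780 genes in all. Also added were the fits without cells of over 10 UMIs of the 9 genes, which gave 0 calls in both classes, and the alternatives for the Ighm-led share, which kept its direction (15.1 to 48.7 points). Fits for B and plasma cells and the ratio of B cell shares were not run, since a library held under 10 such cells or a genotype held none. Values for Ighd rest on few UMIs, with 78 in all.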
